A study of Mus musculus with 12 samples.

Results

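The TGF-β ligand genes Tgfb1, Tgfb2 and Tgfb3, the activin subunit gene Inhba, the latency genes Ltbp1 and Ltbp2 and the receptor genes Tgfbr1, Tgfbr2 and Tgfbr3 were followed in 12 RNA-seq libraries of murine hepatoblastoma (HB) cells. These 9 genes were taken by symbol from the 45706 genes listed, and all 9 were among the 18909 genes that passed the filter on low values, a mean of at least 0.1 TPM (transcripts per 1e+06 transcripts) over the 12 libraries. The set was chosen by the low level of Tgfb3 in unsorted hypoxic relative to unsorted normoxic cells, so every value of that comparison is given as a description, with no p-value. BN1-Tie2-EGFP cells, 1 cell line with the label genotype Cdkn2a KO, came from a tumor driven by mutant β-catenin (B) and NRF2 (N) in which Cdkn2a had been targeted in the liver with Crispr vectors, and they carried EGFP under the promoter of the endothelial receptor gene Tie2/Tek in pooled stable transfectants. The group UN held unsorted cells in normoxia (21% O2) and the group UH held unsorted cells after 2 days in 1% O2. SN cells were the brightest EGFP+ fraction of such hypoxic cultures, isolated by FACS and expanded for about 10 days in normoxia. For SH, such expanded sorted cells went back to 1% O2 for 2 more days. Each group had 3 libraries. SN therefore differed from UN by the sort, an earlier hypoxic episode and the expansion, and these cannot be told apart. The labels do not say whether libraries of a group came from separate cultures, so p-values measure the spread between these samples, and in bulk RNA fewer cells of a type and less RNA per cell cannot be told apart.

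TGF-β ligands are secreted as inactive complexes in which the propeptide stays wrapped around the ligand and is tied to the extracellular matrix by latent TGF-β binding proteins. Once released, the ligand binds the kinase TGFBR2, which recruits and phosphorylates TGFBR1, and TGFBR1 phosphorylates SMAD2 and SMAD3, which enter the nucleus with SMAD4. TGFBR3 (betaglycan) is a co-receptor that presents the ligand, above all TGFB2, to TGFBR2, and dimers of the Inhba product form activin A, which signals to the same SMAD proteins through its own receptors. In liver the pathway is known for restraining hepatocyte growth and driving fibrosis, and in tumors for epithelial-mesenchymal transition.

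In the GENCODE M21 annotation of GRCm38 all 9 genes are protein-coding. Ltbp2 (chromosome 12, 84783212 to 84876532, minus strand) and Tgfb3 (chromosome 12, 86056745 to 86079041, minus strand) lie 1.18 Mb apart on the same strand, and the other 7 genes are on 7 other chromosomes. RefSeq promoter windows of 250 bases before the transcript start (GRCm38.p6) were held for 7 of the 9 genes, in 9 windows. None was held for Tgfb3 or Tgfbr3, so these genes were not searched. They were searched on both strands for ACGTG and GCGTG, the core letters of a hypoxia response element, because the genes were followed through hypoxia. At least 1 match stood in 7 of the 9 windows, against 38.8% of all 32536 windows of the same length. Both words hold the letters CG, and this comparison was not matched for GC share. The GC share was 43.2% to 75.2% in the 9 windows, beside a median of 52.4% over all windows. The second windows of Ltbp1 and Tgfbr1 held no match. The AP-1 word TGAGTCA, found in 4.45% of all windows, and the palindromic Smad word, found in 0.169%, matched none of the 9 windows. Windows of Tgfb2, Tgfbr1 and Inhba are shown 5′ to 3′, with the matched letters in capitals.
Tgfb2, chr1:186705990-186706239, minus strand: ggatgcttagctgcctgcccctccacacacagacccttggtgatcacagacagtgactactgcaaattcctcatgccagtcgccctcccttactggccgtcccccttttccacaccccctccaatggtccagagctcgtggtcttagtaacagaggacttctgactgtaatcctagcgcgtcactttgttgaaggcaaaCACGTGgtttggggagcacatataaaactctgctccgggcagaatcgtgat
Tgfbr1, chr4:47352972-47353221, plus strand: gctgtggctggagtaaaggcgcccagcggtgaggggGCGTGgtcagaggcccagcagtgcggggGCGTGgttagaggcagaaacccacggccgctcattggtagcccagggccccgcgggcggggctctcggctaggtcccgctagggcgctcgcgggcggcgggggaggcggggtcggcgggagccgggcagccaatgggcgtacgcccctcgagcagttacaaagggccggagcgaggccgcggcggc
Inhba, chr13:16011601-16011850, plus strand: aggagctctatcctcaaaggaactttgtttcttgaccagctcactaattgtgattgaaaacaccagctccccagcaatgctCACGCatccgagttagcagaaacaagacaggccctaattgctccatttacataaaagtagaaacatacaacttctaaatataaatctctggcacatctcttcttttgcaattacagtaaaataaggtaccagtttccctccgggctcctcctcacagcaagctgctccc
Tgfb2 held ACGTG and its reverse complement overlapping in 1 palindrome that ended 46 bases before the start. Tgfbr1 held GCGTG at 2 places, 214 to 210 and 186 to 182 bases before the start, and Inhba held the reverse complement of GCGTG 169 to 165 bases before the start. Tgfb2 and Tgfbr1 were lower and Inhba was higher in UH than in UN, so a match stood upstream of genes that moved either way. Ltbp2, also lower in UH than in UN, held GCGTG 37 to 33 bases before the start. Tgfb1 and Tgfbr2, whose UH and UN libraries overlapped, held 1 match each. Such a match is a description of letters and not of factor binding.

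Before any comparison, UN replicate 1 stood apart from the other UN libraries. Its Col3a1, a fibrillar collagen gene, was 1960 TPM against 222 and 173 TPM, its Acta2, the smooth muscle actin gene, was 845 against 172 and 162 TPM, and its hepatoblast gene Dlk1 was 13.5 against 83.8 and 78.7 TPM. It had the lowest UN level of Tgfb2, Tgfb3, Ltbp1, Ltbp2 and Tgfbr1 and the highest of Inhba, so values that use UN are also given without it where its absence ended or made a call or moved the value by over 1.5 times. Summed over 10 fibroblast, stellate cell and pericyte markers, the level ran from 1050 to 4497 TPM in UN, 4139 to 6123 in UH, 200.5 to 211 in SN and 56.2 to 77.7 in SH, with 6, 7, 7 and 6 markers at a mean of 1 TPM or more and Lum listed at 0 in UH and SN. The sum of 10 hepatoblast and hepatocyte markers ran from 152 to 374, 608 to 732, 116 to 166 and 103 to 181 TPM, with 9, 7, 3 and 5 markers at 1 TPM or more and Epcam listed at 0 in both sorted groups. Krt19 alone was 29.4 to 83.4 TPM in UN and 424 to 513 TPM in UH. Dlk1 also had a higher mean in UH than in UN, while Afp, Alb, Gpc3, Hnf4a, Krt8, Krt18, Cdh1 and Epcam had a lower one. Krt18 alone was 99.8 to 149 TPM in SN and 80.1 to 157 TPM in SH. Of 10 endothelial markers, 1, 1, 2 and 3 reached 1 TPM, with summed levels of 3.86 to 12 TPM over all libraries, and Tie1, Emcn and Cldn5 were listed at 0 in every unsorted library. Of 8 leukocyte markers, 3, 3, 2 and 2 reached 1 TPM, with sums of 5.14 to 9.77, 21.5 to 22.7, 9.73 to 14.5 and 58.8 to 63.3 TPM, and Adgre1, a defining macrophage gene, was listed at 0 in UN, UH and SN. Of the leukocyte sum in SH, Cd68 alone was 51.2 to 55.9 TPM. The mitochondrially encoded share of TPM was 6.10% ± 1.27 in UN, 2.11% ± 0.433 in UH, 8.10% ± 0.397 in SN and 3.43% ± 1.10 in SH (SD, n = 3). Within SH, replicate 3 stood apart in some values. Its mitochondrial share was 4.68% against 2.94% and 2.66%, and its Acta2 was 9.43 against 1.59 and 1.25 TPM. Its Smad7, an inhibitory Smad gene followed below, was 55.3 against 130.7 and 133 TPM. Cdkn2a, the targeted gene in every group, was 196 to 327 TPM in UN, 66.4 to 78.7 in UH, 10.4 to 16.5 in SN and 7.37 to 9.32 in SH, and since Crispr indels can leave a transcript, its level does not check the genotype. What part these movements have in the results below was not tested.

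Tgfb3, 1 of the 3 TGF-β ligand genes, was high in unsorted normoxic cells alone. Its level was 30.3, 54.7 and 49.7 TPM in UN replicates 1, 2 and 3, 6.21, 6.87 and 8.27 TPM in UH, 9.43, 10.9 and 10.7 TPM in SN and 8.60, 7.95 and 7.28 TPM in SH. All UN libraries lay above all other libraries, and the other 9 libraries stayed between 6.21 and 10.9 TPM. The mean was 6.31-fold lower in UH than in UN, the value on which the set was chosen, and 4.34-fold lower in SN than in UN, both as descriptions. In the comparison of SH with SN, which used none of those libraries, every SH library lay below every SN library, but the log2 fold change of -0.34 (SE 0.195, limma adjusted p = 0.189) did not pass the test. The 95% interval of that difference was -0.77 to 0.08 on the log2(TPM + 1) scale. UH against UN was at -2.46 on this scale, and since the set was chosen on that value, the 2 are not compared.

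Tgfb2, the ligand with the highest level in UN, had a similar order of levels. It was 59.4, 145 and 159 TPM in UN, 21.7, 29.5 and 37.8 TPM in UH, 32, 39.2 and 40.8 TPM in SN and 23.6, 22.4 and 20.4 TPM in SH. No UN library overlapped any other group, and the SN libraries lay above the SH libraries. The mean was 4.08-fold lower in UH than in UN, again as a description. Tgfb2 fell in SN relative to UN, by 1.56 on the log2 scale (SE 0.312, limma adjusted p = 0.00246), and by 2.00 without UN replicate 1. SH against SN gave a log2 fold change of -0.72 (SE 0.312, limma adjusted p = 0.0859), which did not pass the test. Among the ordered levels UN, SN, UH and SH, UN differed from SN, while SN and UH (limma adjusted p = 0.391) and UH and SH (limma adjusted p = 0.361) did not differ beyond their spread.

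Tgfb1, the ligand best known from fibrosis, went another way. It was 30.1, 26 and 27.9 TPM in UN, 23.7, 25.9 and 26.4 TPM in UH, 37.3, 45.3 and 42.7 TPM in SN and 47.0, 49.5 and 35.9 TPM in SH. Every sorted library lay above every unsorted library, and within the sorted and within the unsorted cells the hypoxic and normoxic libraries overlapped. The log2 fold change was 0.56 in SN against UN (SE 0.129, limma adjusted p = 0.00581) and 0.77 in SH against UH (SE 0.129, limma adjusted p = 0.000611). Both passed the adjusted p and neither reached the log2 fold change of 1 that a call also needed. SH against SN gave 0.07, with a 95% interval of -0.21 to 0.35.

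**Figure D1:**
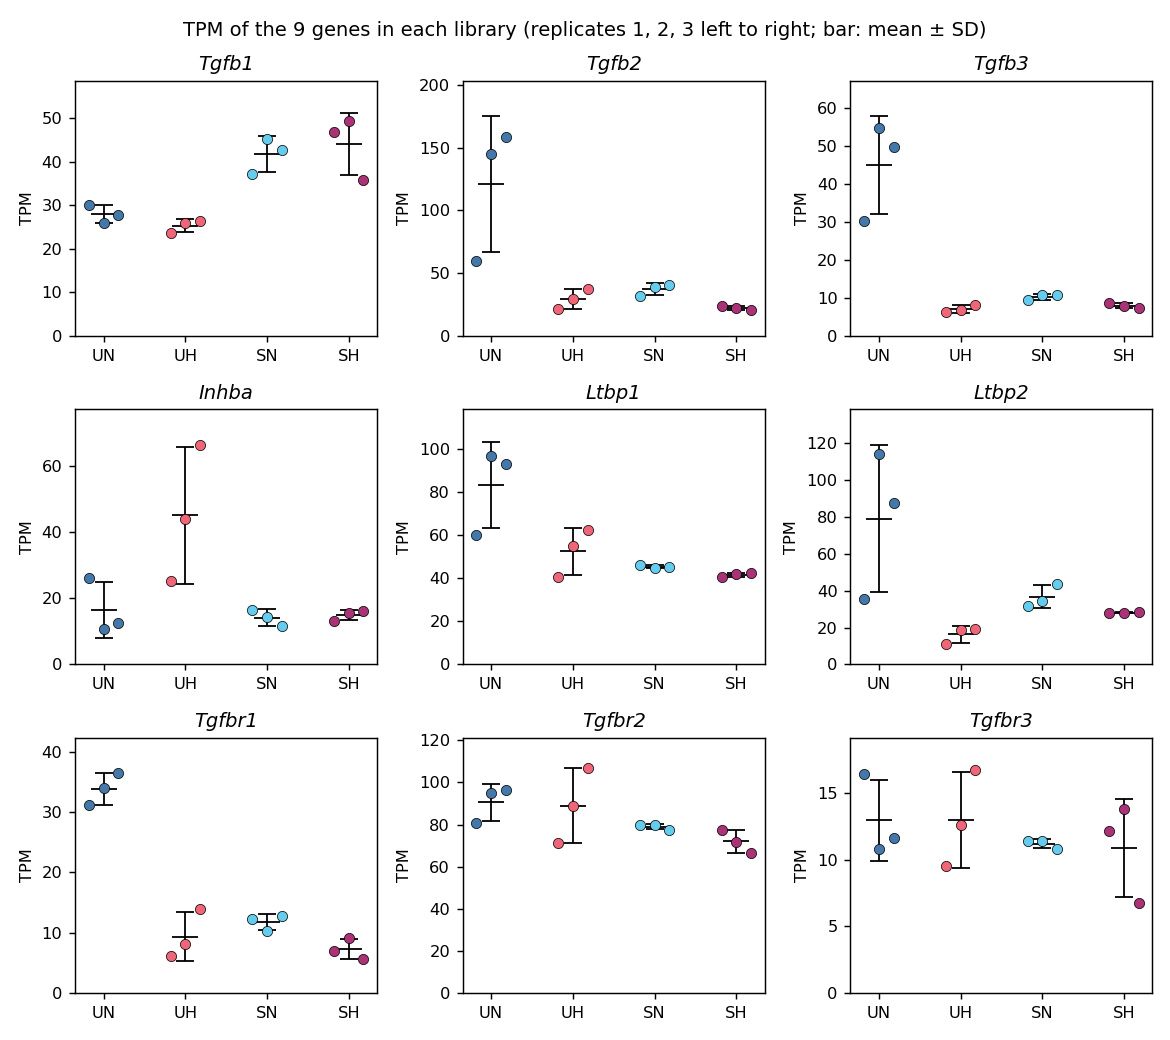
TPM (vertical axis, linear, from 0) of each of the 9 genes in the 4 groups, with 1 point per library and a bar for the mean ± SD of 3 libraries. Tgfb3 lies between 30.3 and 54.7 TPM in UN and at or below 10.9 TPM in every other library, while Tgfb1 is 35.9 TPM or more in every sorted and 30.1 TPM or less in every unsorted library and Inhba is highest in UH.

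TPM are corrected for transcript length, so levels of the ligands can be set side by side. Their summed level was 194 ± 64.4 TPM in UN, 62.1 ± 10.4 in UH, 89.4 ± 9.32 in SN and 74.2 ± 9.21 in SH (SD, n = 3). The lowest UN library, replicate 1, had a sum of 119.9 TPM, above the highest library of the other groups, 95.4 TPM. Tgfb2 made up 60.3% ± 9.43 of the sum in UN and 30.0% ± 2.00 in SH. Tgfb1 made up 16.1% ± 7.79 in UN, 41.3% ± 4.73 in UH, 46.7% ± 1.21 in SN and 59.3% ± 2.75 in SH, so that the leading ligand transcript was Tgfb2 in every unsorted library but UH replicate 1 and Tgfb1 in every sorted library. Tgfb3 made up 23.5% ± 2.21 in UN and between 9.95% and 12% in every other library.

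**Figure D2:**
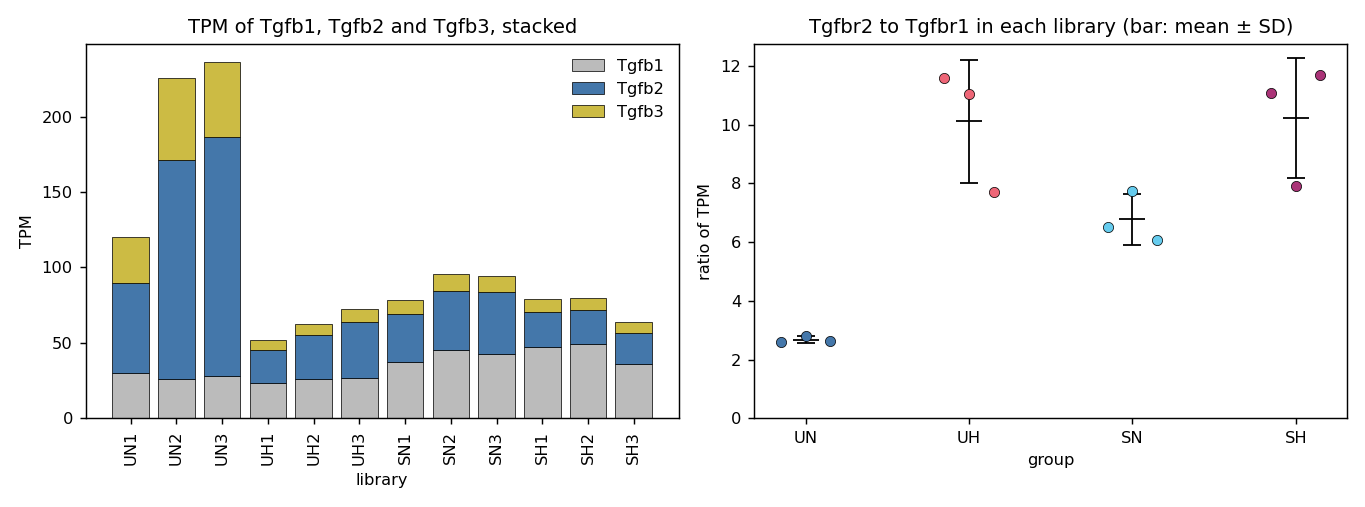
Left, TPM of Tgfb1, Tgfb2 and Tgfb3 stacked for each library. Right, the ratio of Tgfbr2 to Tgfbr1 TPM, with 1 point per library and a bar for the mean ± SD of 3 libraries in each group. The ligand sum is 119.9 TPM or more in UN and 95.4 TPM or less elsewhere, and the receptor ratio is 2.80 or less in UN and 6.09 or more elsewhere.

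Inhba was the member that stood highest in unsorted hypoxic cells. It was 26, 10.7 and 12.5 TPM in UN, 25.1, 43.8 and 66.3 TPM in UH, 16.4, 14.4 and 11.5 TPM in SN and 13.2, 15.6 and 16.1 TPM in SH. UH replicate 1 lay below UN replicate 1, so UH and UN overlapped, and the UH libraries lay above all sorted libraries. The UH mean was 2.75-fold the UN mean, as a description. Inhba was lower in SH than in UH, with a log2 fold change of -1.43 (SE 0.346, limma adjusted p = 0.00614). SH against SN gave 0.09 with a 95% interval of -0.66 to 0.85. The difference between the sorted and the unsorted response to hypoxia, (SH - SN) - (UH - UN), was -1.31 (SE 0.489, limma adjusted p = 0.0762) and did not pass the test. It was called without UN replicate 1 (-1.68), without UH replicate 1 (-1.67), under median-of-ratios scaling (-1.60) and under quantile normalization (-1.62).

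Of the latent TGF-β binding protein genes, Ltbp2, whose product is a matrix protein that unlike that of Ltbp1 does not carry the ligand, varied more. It was 35.6, 114 and 87.9 TPM in UN, 11.2, 18.5 and 19.4 TPM in UH, 31.9, 34.7 and 43.9 TPM in SN and 27.9, 28.1 and 28.4 TPM in SH. The UH libraries were the lowest of all, and UN replicate 1 lay within the range of SN. The mean was 4.84-fold lower in UH than in UN, as a description, and 1.31-fold lower in SH than in SN, where the log2 fold change of -0.37 (SE 0.344, limma adjusted p = 0.437) did not pass. The 2 responses differed by 1.73 on the log2 scale (SE 0.486, limma adjusted p = 0.0266). That call was lost in 7 of the 12 fits that left out 1 library, with 1.39 without UN replicate 2 as the lowest value and 2.21 without UN replicate 1 as the highest. SN against UN gave -0.94 (SE 0.344, limma adjusted p = 0.0533), which did not pass with all libraries and was called at -1.43 without UN replicate 1.

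Ltbp1, the main carrier of latent TGF-β in matrix, ranged less. It was 60.0, 96.6 and 92.7 TPM in UN, 40.5, 54.8 and 62.1 TPM in UH, and between 40.6 and 46.1 TPM in the 6 sorted libraries. The UH libraries overlapped UN through UN replicate 1. In SN it was 1.84-fold lower than in UN, a log2 fold change of -0.83 (SE 0.180, limma adjusted p = 0.00399) that stayed under the fold needed for a call. Without UN replicate 1 it was -1.05 and called. SH against SN gave -0.12, with a 95% interval of -0.51 to 0.28.

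Among the receptor genes Tgfbr1, the kinase that phosphorylates SMAD2 and SMAD3, was the only one past the threshold fold between any of the groups. It was 31.1, 34 and 36.5 TPM in UN, 6.15, 8.05 and 13.9 TPM in UH, 12.3, 10.3 and 12.8 TPM in SN and 6.99, 9.08 and 5.70 TPM in SH. UN lay above all other libraries, with little spread, and SN lay above SH. The mean was 3.62-fold lower in UH than in UN, as a description. Tgfbr1 fell in SN relative to UN, by 1.45 on the log2 scale (SE 0.238, limma adjusted p = 0.000665). SH against SN gave -0.65 (SE 0.238, limma adjusted p = 0.0476), past the adjusted p but not the fold. The unsorted and sorted responses differed by 1.17 (SE 0.336, limma adjusted p = 0.0287), a call that was lost under median-of-ratios scaling, at 0.89, and under quantile normalization, at 0.87, and in 8 of the 12 fits that left out 1 library, which ran from 0.94 to 1.47.

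Tgfbr2, which binds the ligand first, and Tgfbr3, the co-receptor, had overlapping ranges in UN and UH. Tgfbr2 was 80.6 to 96.4 TPM in UN, 71.2 to 107 TPM in UH, 77.6 to 79.9 TPM in SN and 66.7 to 77.4 TPM in SH. Tgfbr3 was 10.8 to 16.5, 9.55 to 16.7, 10.8 to 11.4 and 6.77 to 13.8 TPM in the same order. In SN against UN their log2 fold changes were -0.19 (95% interval -0.48 to 0.10) and -0.17 (-0.73 to 0.38). In SH against SN they were -0.14 (-0.43 to 0.16) and -0.09 (-0.64 to 0.47), so a change of 2-fold in either gene lies outside these intervals. The ratio of Tgfbr2 to Tgfbr1 TPM followed Tgfbr1. It was 2.68 ± 0.110 in UN, 10.1 ± 2.09 in UH, 6.77 ± 0.856 in SN and 10.2 ± 2.03 in SH (SD, n = 3), and no UN library overlapped another group.

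**Figure D3:**
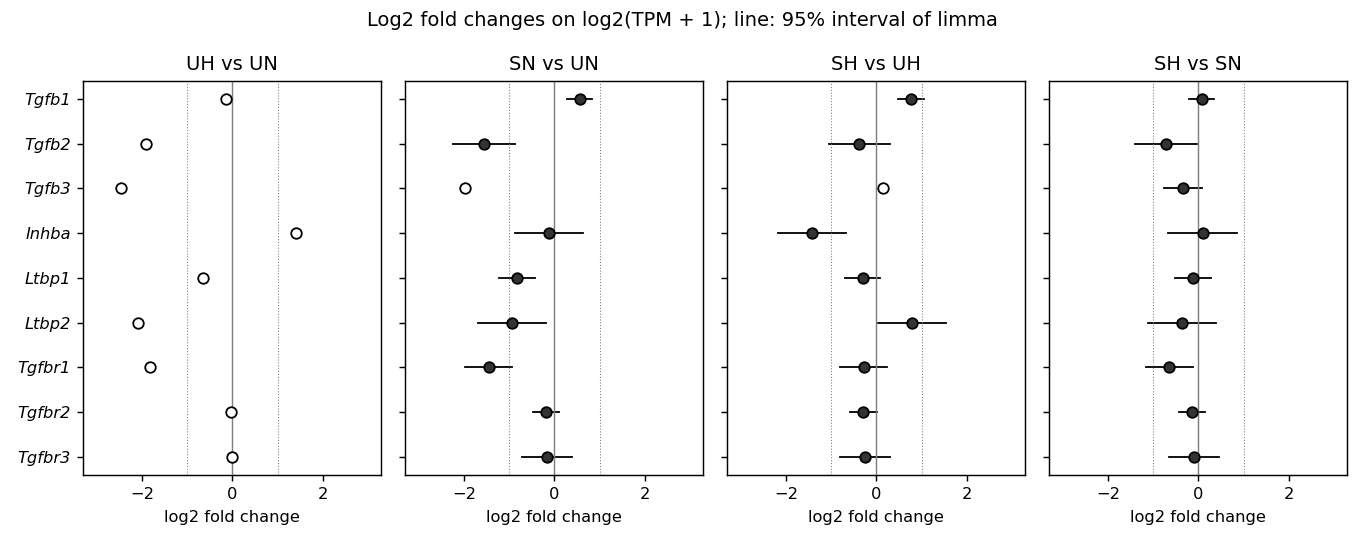
Log2 fold changes of the 9 genes on the log2(TPM + 1) scale (horizontal axes) in 4 comparisons. Filled points carry the 95% interval of limma, open points are descriptions with no test, and dotted lines mark a log2 fold change of 1 in each direction. In SH against SN all 9 points lie within 1 log2 unit of 0, and in UH against UN 5 of the 9 lie outside it, from Tgfb3 at -2.46 to Inhba at 1.40.

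Counted over the 9 genes, a call needed a Benjamini-Hochberg adjusted p under 0.05 over all 18909 genes and an absolute log2 fold change above 1, the thresholds the study used. The study applied them to counts normalized by DESeq2. Here they apply to limma on log2(TPM + 1), so the calls are not the same measure. UH against UN chose the set, so its counts are a description from which nothing is read. There 4 genes lay past both thresholds downward (Tgfb2, Tgfb3, Ltbp2, Tgfbr1), where 11.8% of all genes did, and 1 upward (Inhba), where 5.46% did. The counts of the other comparisons that use UN or UH are over the 8 genes without Tgfb3. Between SH and SN none was called in either direction by limma, against 5.0% of all genes lower and 7.47% higher, and at an unadjusted p under 0.05 there were 2, Tgfb2 and Tgfbr1, both lower. In SN against UN 2 of 8 were lower (Tgfb2, Tgfbr1) beside 7.57% of all genes, and 4 without UN replicate 1, with Ltbp1 and Ltbp2 added. None was called higher by limma beside 3.20% of all genes, with Tgfb1 at an unadjusted p under 0.05. In SH against UH 1 of 8 was lower (Inhba) beside 5.35%, and none was called higher by limma beside 7.65%, with Tgfb1 and Ltbp2, 2 genes, higher at an unadjusted p under 0.05. The response of sorted cells minus that of unsorted cells was called higher for 2 of 8 (Ltbp2 and Tgfbr1) beside 8.08% of all genes, and for 3 without UN replicate 1, with Tgfb2 added. It was called lower by limma for none, beside 2.18%, with 1 gene, Inhba, at an unadjusted p under 0.05. The shares of all genes belong to the fit on all 12 libraries, and none is given for the fit without UN replicate 1. These comparisons share libraries, so their counts are not separate evidence. The difference of the responses also contains UH against UN, on which the set was chosen. The median log2 fold change of the 9 genes was -0.64 in UH against UN, -0.14 in SH against SN, -0.83 in SN against UN and -0.28 in SH against UH, beside -0.19, 0.03, -0.06 and 0.17 over all genes tested. Median-of-ratios scaling brought the all-gene median of UH against UN to 0 and reversed the small differences of Tgfb1 (from -0.14 to 0.21), Tgfbr2 (from -0.04 to 0.32) and Tgfbr3 (from -0.01 to 0.33) in that comparison.

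The 5 genes whose pattern was most like that of Tgfb3, by Pearson r of log2(TPM + 1) over the 12 libraries among 13567 genes with a mean of at least 1 TPM, were Platr25 (r = 0.990), Ftsj1 (0.986), Mrpl10 (0.983), Cdk5rap2 (0.982) and Ripply1 (0.981). Among the other members r with Tgfb3 was 0.957 for Tgfb2, 0.942 for Tgfbr1 and 0.874 for both Ltbp2 and Ltbp1, and it was 0.487 for Tgfbr2, 0.165 for Tgfbr3, -0.306 for Tgfb1 and -0.387 for Inhba. The 12 points share their groups and fall into UN against the rest, so these values are descriptions. Ftsj1, for example, had a mean of 47.3 TPM in UN and 17.8, 23.2 and 18.1 TPM in UH, SN and SH.

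Around these genes, 65 other genes of the pathway were listed by role, and 57 passed the filter on low values. In SH against SN 7 rose and 3 fell, beside 7.47% and 5.0% of all genes, the latter near the share of the list. In SN against UN 3 rose and 18 fell, beside 3.20% and 7.57%. Without UN replicate 1 the counts were 5 and 21, and no share over all genes is given for that fit. In SH against UH 3 were higher and 13 were lower, beside 7.65% and 5.35%. In UH against UN, given as a description, 13 were higher and 9 lower, beside 5.46% and 11.8%. The median log2 fold change of the 57 genes was 0.13, -0.33, -0.06 and 0.16 in these comparisons, beside 0.03, -0.06, 0.17 and -0.19 over all genes.

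Of the textbook TGF-β target genes 14 were followed, and in UH against UN, as a description, 7 were higher and 2 lower, with a median log2 fold change of 0.84. Of all genes, 5.46% were higher and 11.8% lower there, the latter near the share of the targets. Between SH and SN the collagen gene Col1a1 and the cell cycle inhibitor gene Cdkn1a rose and Acta2 fell, beside 7.47% of all genes higher and 5.0% lower. Cdkn1a was 32.6 to 86.5 TPM in UN, 529.8 to 573.7 in UH, 181 to 211 in SN and 572 to 790.3 in SH, so that the normoxic and hypoxic libraries did not overlap. It rose by 1.85 in SH against SN (SE 0.283, limma adjusted p = 0.000307), beside 3.52 in UH against UN as a description. Col1a1 rose by 1.57 (SE 0.327, limma adjusted p = 0.00246), with 5.65 to 7.62 TPM in SN and 15.5 to 26.3 TPM in SH, far below the 428 to 1186 TPM of UN. Acta2 fell by 2.99 (SE 0.631, limma adjusted p = 0.0027), with 24.2 to 34.7 TPM in SN and 1.25 to 9.43 TPM in SH, and was at -3.69 without SH replicate 3. The ligand sum was 51.6 to 72.4 TPM in UH, 78.7 to 95.4 TPM in SN and 63.6 to 79.8 TPM in SH, in each case below every UN library. Any link between the ligand sum and Cdkn1a was not tested.

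The collagen and contractile targets divided sorted from unsorted cells. In SN against UN, 7 of the 14 target genes fell, beside 7.57% of all genes, and 1, Cdkn1a, rose, beside 3.20%. In SH against UH 7 were lower, beside 5.35%, and 1, Snai2, an epithelial-mesenchymal transition factor gene, was higher, a share near the 7.65% of all genes. Snai2 was at 1.03 there, and its call was lost under 2 scalings and in 3 of the 12 fits that left out 1 library (without SH replicate 3, UH replicate 1 or UH replicate 2, at 0.91 to 0.98). Col1a2 was 126 to 664 TPM in UN, 714 to 1011 in UH and between 0.198 and 0.562 TPM in the 6 sorted libraries, and its log2 fold change was -7.46 in SN against UN (SE 0.468, limma adjusted p = 4.63e-07) and -6.70 without UN replicate 1. Col1a1 changed by -6.38 (SE 0.327, limma adjusted p = 9.21e-08). Col1a1 is itself among the 10 fibroblast markers, whose sum moved the same way, from 1050 to 4497 TPM in UN to 200.5 to 211 TPM in SN. Of these 10 markers Des alone had a higher mean in SN, at 1.41 TPM against 0.731 in UN. The UN and SN libraries overlapped for Pdgfrb, at 28.4 to 74.6 and 40.3 to 47.7 TPM. For Dcn they overlapped too, at 81.25 to 348.9 and 115.6 to 125.8 TPM. Ctgf (Ccn2), a matricellular protein gene, was 176 to 209.7 TPM in UN and 1063 to 1216 TPM in UH, but 68.7 to 72.0 TPM in SN and 50.75 to 65.9 TPM in SH. The 2 responses of Ctgf differed by -2.83 (SE 0.152, limma adjusted p = 1.61e-06).

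The activin branch had 5 of 9 listed genes above the filter, and in SH against SN 2 rose and 1 fell, beside 7.47% and 5.0% of all genes. Fstl3, a secreted antagonist of activin, was 4.53 to 22.3 TPM in UN, 309.6 to 327 in UH, 0.234 to 0.593 in SN and 5.54 to 7.16 in SH. The highest UN library was replicate 1, and UH lay far above every other group. Fstl3 rose by 2.43 in SH against SN (SE 0.413, limma adjusted p = 0.000647) and was lower by 5.41 in SH than in UH (SE 0.413, limma adjusted p = 1.68e-06). Inha, the inhibin α subunit gene whose product pairs with that of Inhba, rose by 2.45 in SH against SN (SE 0.223, limma adjusted p = 8.14e-06), with 1.04 to 2.48 TPM in SN and 11.7 to 15.5 TPM in SH. Fst, the follistatin gene, fell by 1.08 in the same comparison (SE 0.141, limma adjusted p = 0.000104), with 35.5 to 43.8 TPM in SN and 17.5 to 19.5 TPM in SH, and quantile normalization put this fall at 0.97, under the fold needed. Inhbb, the other activin subunit gene tested, was higher in SH than in UH by 1.62 (SE 0.145, limma adjusted p = 5.67e-06), where Inhba was lower.

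Of 14 tested genes of ligand processing, storage and activation, 7 fell in SN against UN, beside 7.57% of all genes. In SH against SN 1 of the 14, Dcn, fell, which is near the 5.0% of all genes. None was called higher by limma in SN against UN, beside 3.20% of all genes, and 4 were higher there at an unadjusted p under 0.05. Bgn and Fbn1, a matrix proteoglycan gene and the fibrillin gene on which latent complexes are deposited, changed by -4.33 (SE 0.476, limma adjusted p = 4.04e-05) and -4.15 (SE 0.273, limma adjusted p = 6.42e-07) in SN against UN, and Bgn was at -3.53 without UN replicate 1. Fbn1 was 25.9 to 47.6 TPM in UN and 24.8 to 51.9 TPM in UH, but 0.887 to 1.51 TPM in all sorted libraries. Dcn, decorin, which binds TGF-β, fell by 2.23 in SH against SN (SE 0.437, limma adjusted p = 0.0017), with 115.6 to 125.8 TPM in SN and 17.6 to 32.5 TPM in SH. In UH against UN, as a description, Lrrc32, which displays latent TGF-β on the cell surface, was higher by 1.36 and the matrix proteoglycan gene Fmod was at -3.38 (-4.43 without UN replicate 1), with 7.24 TPM in UN replicate 1 against 75.5 and 68.9 TPM in the other UN libraries.

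The remaining receptors and the intracellular arm were followed in the same way. Of 8 other receptors of the superfamily 2 rose in SH against SN, Eng and Acvrl1, beside 7.47% of all genes. In SN against UN 1 fell, Eng, a share near the 7.57% of all genes. Eng (endoglin), a co-receptor of endothelial cells, rose by 1.76 in SH against SN (SE 0.436, limma adjusted p = 0.00695). It was 1.07 to 1.20 TPM in SN and 5.39 to 7.24 TPM in SH. In SN against UN its log2 fold change was -2.90 (SE 0.436, limma adjusted p = 0.000382), and -2.19 without UN replicate 1. Eng was 8.67 to 41.4 TPM in UN and 34.75 to 43.6 TPM in UH, so every sorted library lay below every unsorted library. SH against UH gave -2.48 for Eng (SE 0.436, limma adjusted p = 0.000813). Acvrl1, the type I receptor ALK1 of endothelium, rose by 1.28 in SH against SN (SE 0.238, limma adjusted p = 0.00116) at low levels. It was 0.110 to 0.228 TPM in SN and 2.38, 2.93 and 0.767 TPM in SH replicates 1, 2 and 3. Fits that left out 1 library ran from 1.05 to 1.63. Of the 7 Smad transducer genes none was called by limma in SH against SN, beside 7.47% of all genes higher and 5.0% lower. At an unadjusted p under 0.05 there were 3, 1 higher and 2 lower. In SN against UN 1 of the 7 rose and 1 fell, beside 3.20% and 7.57% of all genes. Smad3 rose by 1.09 (SE 0.213, limma adjusted p = 0.0021), with 51.0 to 61.4 TPM in UN and 113 to 129 TPM in SN. Smad9 changed by -1.16 (SE 0.282, limma adjusted p = 0.00766). The call of Smad9 was lost under quantile normalization (-0.80), with SN and UN fitted alone, and without UN replicate 2 (-0.99) or UN replicate 3 (-0.93). Of 9 feedback inhibitors and corepressors 1 rose in SH against SN, a share near the 7.47% of all genes. It was Smad7, the inhibitory Smad gene that the pathway itself induces, at 1.44 (SE 0.294, limma adjusted p = 0.00225). Smad7 was 30.8 to 39.9 TPM in SN and 130.7, 133 and 55.3 TPM in SH replicates 1, 2 and 3. Fits that left out 1 library ran from 1.22 to 1.85. In UH against UN Smad7 was higher by 1.40 as a description. Tgif1, a corepressor gene and 1 of these 9, rose by 1.24 in SN against UN (SE 0.143, limma adjusted p = 5.43e-05), beside 3.20% of all genes higher.

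**Figure D4:**
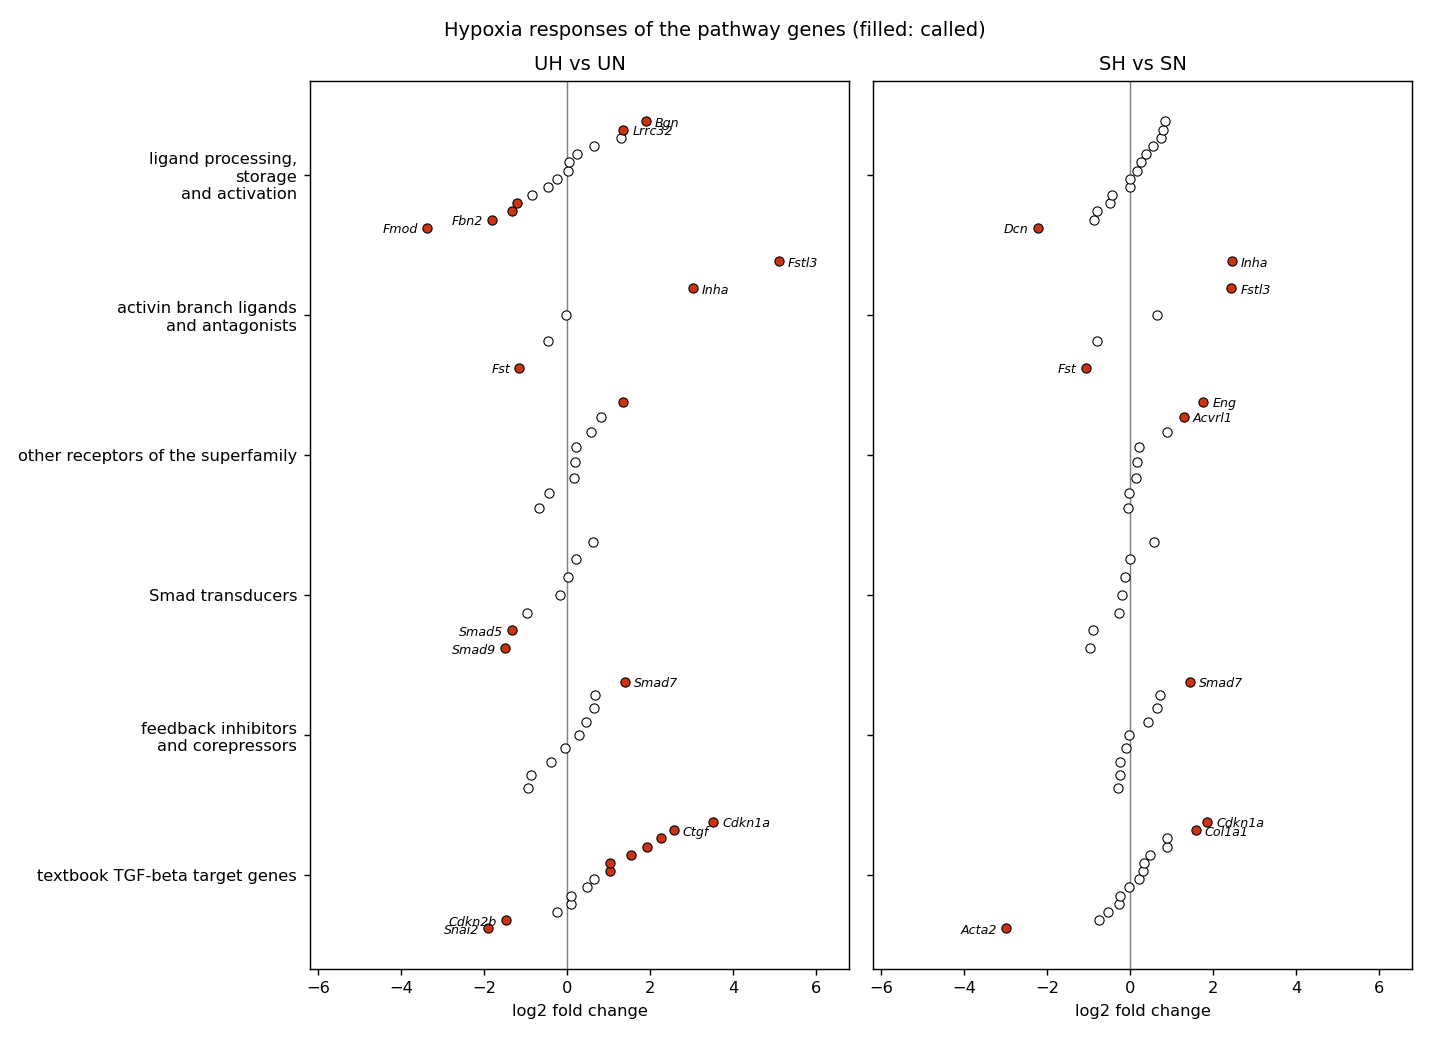
Log2 fold changes (horizontal axes, log2(TPM + 1) scale) of the 57 tested pathway genes, 1 point per gene, grouped by role, in UH against UN and SH against SN. Filled points passed both thresholds, and names are given for the largest movements without overlap of libraries. The points of UH against UN, the comparison that chose the members, are descriptions. Cdkn1a is the highest target gene in both comparisons, at 3.52 and 1.85, and Smad7 lies at 1.40 and 1.44.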

How the data were processed

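BN1-Tie2-EGFP cells were profiled by RNA-seq in 4 groups of 3 libraries (UN, UH, SN, SH). Stranded mRNA libraries were sequenced paired-end on an AVITI instrument, and the submitters' processing notes and design text name nf-core/rnaseq 3.12.0 and mm10, while the gene annotation is not given in the sources used here. The authors deposited 1 table of TPM, estimated per gene from the reads and scaled to 1000000 in each library, with no scaling between libraries. TPM keep no depth, so the depth of each library is unknown and precision is given by the spread between 3 libraries. A total of 0 columns had no sample.

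TPM were transformed as log2(TPM + 1), a pseudocount of 1 that understates changes of low genes. Of 45706 genes, of which 17689 were listed at 0 in every library, 18909 with a mean TPM of at least 0.1 were tested. With limma 3.58.1 in R 4.3.3, 1 mean per group was fitted over all 12 libraries, variances were moderated (eBayes, trend on), and p-values were adjusted by Benjamini-Hochberg in each contrast. Calls needed an adjusted p under 0.05 and a log2 fold change beyond 1 in size. An exact permutation test of 3 against 3 libraries cannot go below 0.1 and was not used. The procedure was tested on simulated data. Of the identifiers, 98.8% were found in GENCODE M21.

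The members and the gene lists were chosen with earlier results of these data known. Of the listed pathway genes, 1 is not reported here and is in no count of the list. Named were the 9 members, in each pathway group and comparison up to 2 called genes in each direction with the largest log2 fold change and no overlap of libraries, and the 5 genes most like Tgfb3. Replicate numbers were checked for pairing, and since the residuals of same-numbered libraries correlated at -0.12 to 0.17, they were not treated as pairs. Libraries of 1 group correlated at 0.964 to 0.989 and those of different groups at 0.833 to 0.936 over log2(TPM + 1). Alternatives were a pseudocount of 0.1, a filter at a mean of 1 TPM and no filter, other scalings, each comparison fitted alone, the replicate number as a block and leaving out each library. Python 3.11.15 with pandas 2.3.3, numpy 2.4.6 and matplotlib 3.10.9 made all tables and plots.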

Additional observations from a re-analysis of the deposited data

Results flagged for a closer look

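For 2 of the 8 genes other than Tgfb3 the response to hypoxia differed between sorted and unsorted cells by the test of the difference itself, (SH - SN) - (UH - UN), beside 8.08% of all genes called higher in it. This difference contains UH against UN, the comparison on which the set was chosen. The difference was 1.73 on the log2 scale for Ltbp2 and 1.17 for Tgfbr1. The call of Ltbp2 was lost in 7 of the fits that left out 1 library, where its value ran from 1.39 to 2.21, and the call of Tgfbr1 was lost in 8 of them, where it ran from 0.94 to 1.47. Tgfb3 is left out of this count, since the set was chosen on its response in unsorted cells.

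Among the pathway genes named, the same test gave 2.04 for Ltbp4, 1.80 for Fbn2, 1.95 for Cdkn2b and 1.38 for Snai2, whose sorted response was the higher. Ltbp4 was 11.7 to 32.7 TPM in UN and 8.32 to 10.7 in UH, against 2.00 to 4.17 in SN and 4.88 to 7.68 in SH. Fbn2 was at or below 0.0364 TPM in every sorted library, so its sorted response was near 0. Cdkn2b was 62.9 to 103.5 TPM in UN and 29.1 to 30.9 in UH, against 37.5 to 44.9 in SN and 45.5 to 64.6 in SH. Snai2 was 39.0 to 52.4 TPM in UN and 9.34 to 14.3 in UH, against 31.6 to 39.5 in SN and 21.7 to 26.9 in SH. Acvrl1 at 1.10 and Smad9 at 1.30 lost their call in 10 of the fits without 1 library each.

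The unsorted response was the higher for Ctgf at -2.83, Fstl3 at -2.67, Bgn at -2.77 and Acta2 at -3.08. The call of Acta2 was lost in 10 of the fits without 1 library, and its UN libraries held 845, 172 and 162 TPM. Without UN replicate 1 the value was -3.33 for Fstl3, -3.56 for Bgn and -3.86 for Acta2, and without SH replicate 3 it was -3.78 for Acta2. Fstl3 with a pseudocount of 0.1 was at -1.47 and no longer called.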

How the results depend on the processing

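No depth is known for TPM, so counting error cannot be separated from the spread between libraries. Counts of members in UH against UN and SH against SN are over all 9 here, with Tgfb3 among them. Those of the other comparisons are over the 8 genes without Tgfb3. UH against UN chose the set, so its counts remain descriptions here. The count of members past both thresholds downward in UH against UN, 4, was the same under every alternative run. The count of members called lower in SH against SN, 0, was also the same. Fitted alone, UH and UN left 0 members past both thresholds upward, since Inhba, at a log2 fold change of 1.40, no longer passed the adjusted p. In SN against UN 2 of the 8 were lower with all libraries and 4 without UN replicate 1. In (SH - SN) - (UH - UN), 2 of the 8 were called higher with all libraries and 3 without UN replicate 1. Ltbp2 lost its call in 7 and Tgfbr1 in 8 of the fits without 1 library. Inhba was called lower without UN replicate 1 or UH replicate 1, under median-of-ratios scaling and under quantile normalization. Of the pathway genes, 6 fell in SH against SN with a pseudocount of 0.1. In SN against UN 6 rose with median-of-ratios scaling, 5 with quantile normalization, 5 after rescaling without mitochondrial and the 20 highest genes, and 3 to 5 without 1 library each. In SH against UH 1 was higher with median-of-ratios scaling, 5 after the rescaling, and 1 to 6 without 1 library each, with 6 without SH replicate 3 and 1 without UH replicate 1. In UH against UN 5 were lower with median-of-ratios scaling. Pathway genes lower in (SH - SN) - (UH - UN) ranged from 4 to 11 without 1 library each, with 11 without UN replicate 1. No share over all genes is given for the alternatives, so whether calls over all genes moved likewise was not tested. The causes were not tested.

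Small differences of members changed sign. With median-of-ratios scaling and quantile normalization, UH against UN gave 0.21 and 0.19 for Tgfb1, 0.32 and 0.14 for Tgfbr2 and 0.33 and 0.34 for Tgfbr3 (0.013 after the rescaling), and SH against UH gave -0.028 and -0.0129 for Tgfb3. Median-of-ratios scaling put Tgfb1 at -0.079 in (SH - SN) - (UH - UN), and quantile normalization put Inhba at 0.021 in SN against UN and Ltbp1 at 0.0024 in SH against SN. Without 1 library each, the range was -0.018 to 0.21 for Tgfb1 and -0.039 to 0.20 for Inhba in SH against SN, -0.35 to 0.25 for Inhba in SN against UN, -0.51 to 0.017 for Tgfbr1 in SH against UH, and -0.18 to 0.11 for Tgfbr2 in UH against UN and -0.24 to 0.047 in (SH - SN) - (UH - UN). For Tgfbr3 it was -0.27 to 0.19 in SH against SN, -0.44 to 0.031 in SH against UH, -0.20 to 0.18 in UH against UN and -0.27 to 0.20 in (SH - SN) - (UH - UN). With the replicate block Tgfb2, at 1.18, was added to the members called higher in (SH - SN) - (UH - UN). Acvrl1 lost its call there, and no other count of calls named here changed.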
